A study of Mus musculus with 12 samples.

Results

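Interferon-stimulated effector genes are the genes that a cell switches on after it senses interferon, and whose products act against viruses, modify other proteins or tune the response itself. A list of 36 such genes was followed by gene symbol through the tables of read counts of an overexpression experiment and a knockdown experiment in cultured mouse astrocytes, glial cells that support neurons. Of the 36, 35 were found in both tables, among 25923 genes in the overexpression table and 24509 genes in the knockdown table, and Trex1 was not analysed here. All 35 passed the filter on low counts in each experiment. The genes were chosen by name, with no measured value in the rule, but with earlier results of these data known. They lie on several chromosomes, with 7 on chromosome 11, 6 on chromosome 16 and 4 each on chromosomes 6, 12 and 19.

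Type I interferons bind a receptor made of IFNAR1 and IFNAR2, which activates the kinases JAK1 and TYK2. These kinases phosphorylate transcription factors such as STAT2, which acts with IRF9 at a DNA element called the interferon-stimulated response element (ISRE) near its target genes. Astrocytes carry this receptor, and an interferon programme is one of the known responses of the brain to viral infection and injury.

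Total RNA was sequenced from 12 libraries of primary astrocytes, 3 in each of 4 groups. The cells came from cortices of wild-type C57BL/6J mice taken at postnatal day 3, and after transduction all of them were kept in serum-free medium for 1 week. GADD45G libraries (cells with a virus that expresses GADD45G, a small stress-inducible protein) were set against GFP libraries (cells with a virus for green fluorescent protein). In the knockdown experiment, shGADD45G libraries (a short hairpin RNA against Gadd45g) were set against shLuc libraries. The labels name neither the promoter of the viral constructs nor the origin of the replicates. If these were not separate cultures, the p-values below reflect technical spread alone.

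Total counts per library ran from 17810863 to 18777231 in GADD45G, from 19480657 to 20756461 in GFP, from 15626655 to 18282315 in shGADD45G and from 16179509 to 18970492 in shLuc libraries. Gadd45g itself stood at 149.7, 144 and 139 CPM (counts scaled to the library total) in GADD45G libraries and at 121, 133 and 134 CPM in GFP libraries, a log2 fold change of 0.15 (standard error, SE, 0.05, adjusted p = 0.0298 by edgeR's quasi-likelihood test with Benjamini-Hochberg adjustment). That call was lost in 7 of 14 alternatives: without GADD45G library 1 (0.137), without GFP library 1, 2 or 3 (0.0658, 0.0753 and 0.0671), with no filter (0.0877), with a replicate block (0.0532) and with all 12 libraries in 1 fit (0.551, all edgeR adjusted p). It stood at 67.2, 147 and 122 CPM in shGADD45G libraries and at 139.9, 151 and 129 CPM in shLuc libraries, and that difference did not pass (log2 fold change -0.32, SE 0.22, edgeR adjusted p = 0.408, and -0.05 without shGADD45G library 1). The groups are therefore called by their labels throughout. None of the 9 astrocyte markers was at 0 in any group. They summed to 4367 to 4991 CPM in GADD45G libraries and 3879 to 3914 CPM in GFP libraries (7 higher, 1 lower), and to 3803 to 4238 CPM in shGADD45G libraries and 5149 to 5183 CPM in shLuc libraries (5 lower, none higher). Neither pair of groups overlapped. GADD45G library 3 stood apart: a list of 8 blood and lung genes summed to 1686 CPM there, against 0.112 and 0.163 CPM in the other GADD45G libraries and 0.0489 to 0.256 CPM in GFP libraries. Its 14 microglia and macrophage markers summed to 273 CPM, against 29.3 and 30.9 CPM in the other GADD45G libraries and 75.8 to 79.1 CPM in GFP libraries. In bulk RNA, fewer cells of a type and less RNA per cell cannot be told apart.

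A sequence feature that the choice of genes did not use was found in the promoters of many members. RefSeq promoter windows (build GRCm38.p6, 250 bases before to 50 bases after a start site) were at hand for 26 of the 35 members. The ISRE core, searched on both strands as GAAA, 2 bases of any kind and GAAA again, was present in at least 1 window of 12 of the 26 members (46.2%), against 1079 of 27025 genes (3.99%). The gamma-activated site TTCNNNGAA, a second element of interferon signalling, was present for 6 of the 26 members (23.1%), against 9.55% of all genes. The stretches around the cores of 7 members are shown because these genes recur in the results below, with the ISRE cores of either strand in capitals, read 5′ to 3′ on the gene's strand.
Isg15: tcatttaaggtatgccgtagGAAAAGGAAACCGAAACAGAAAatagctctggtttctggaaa
Ifit1: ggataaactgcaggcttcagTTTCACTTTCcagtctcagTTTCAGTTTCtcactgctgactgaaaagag
Ifit3: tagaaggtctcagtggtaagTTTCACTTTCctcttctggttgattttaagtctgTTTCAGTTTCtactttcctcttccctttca
Rsad2: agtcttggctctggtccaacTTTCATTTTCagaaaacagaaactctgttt
Bst2: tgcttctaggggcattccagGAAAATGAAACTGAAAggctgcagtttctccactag
Slfn8: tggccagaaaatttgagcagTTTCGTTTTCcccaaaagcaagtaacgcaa
Slfn9: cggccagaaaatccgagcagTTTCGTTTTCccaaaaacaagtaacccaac
They lie at chr4:156200855-156200916 (Isg15, minus strand), chr19:34640765-34640833 (Ifit1, plus), chr19:34583353-34583436 (Ifit3, plus), chr12:26456543-26456592 (Rsad2, minus), chr8:71537567-71537622 (Bst2, minus), chr11:83020829-83020878 (Slfn8, minus) and chr11:82991846-82991895 (Slfn9, minus). Isg15 carried 3 overlapping cores in a row and Bst2 carried 2, whereas the 2 cores of Ifit1 and of Ifit3 were apart. The Ifit3b stretch was identical to that of Ifit3 in 84 of 84 bases, and Slfn8 and Slfn9 matched in 37 of 50. Bases were compared position by position with no gap allowed. After the core the Slfn8 and Slfn9 stretches are offset by 1 base, so 37 understates their likeness. The other members with a core were Ddx60, Eif2ak2, Ifitm3 and Slfn5, with the core of Eif2ak2 and of Ifitm3 after the start site. A match is a description of the letters and not of binding.

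GADD45G libraries were compared with GFP libraries to ask which genes differ when GADD45G is introduced. All 35 members were higher in GADD45G libraries, none was lower, and the 2 groups of libraries overlapped for no member. Across the 15418 genes tested, 60.3% were called, 30.6% as higher and 29.7% as lower, at an edgeR adjusted p under 0.05, and 33.7% had every GADD45G library above every GFP library. The median log2 fold change of the members was 2.58, against 0.01 over all genes tested. Their log2 fold changes ran from 0.91 for Ifitm3 to 6.54 for Ifi44, and 33 members changed at least 2-fold and 22 at least 4-fold. How many of all genes tested reached these folds was not counted. Summed over the 35 members, the level was 6950, 7209 and 6622 CPM in GADD45G libraries, against 1184, 1187 and 1173 CPM in GFP libraries. The members thus made up 0.662% to 0.721% of scaled counts in GADD45G libraries and 0.117% to 0.119% in GFP libraries.

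The 4 Ifit genes lie near each other on chromosome 19, from Ifit2 (chr19:34550694-34576419) to Ifit1 (chr19:34640871-34650009) in the deposited mm10 coordinates, and encode proteins that bind RNA ends typical of viral transcripts and block their translation. Ifit1 stood at 576, 599.7 and 529 CPM in GADD45G libraries, against 17.8, 16.9 and 15.9 CPM in GFP libraries. All 3 GADD45G libraries lay far above the GFP libraries, with a log2 fold change of 5.08 (SE 0.07, edgeR adjusted p = 2.28e-12). Ifit3 had 1276, 1438 and 1282 CPM in GADD45G libraries and 111, 103 and 101 CPM in GFP libraries (log2 fold change 3.66, SE 0.06, edgeR adjusted p = 6.29e-12). Its near copy Ifit3b rose by 3.76 (SE 0.06), and reads of these neighbours may have been split between them. Ifit2 rose least of the 4, with 184, 197 and 182 CPM in GADD45G libraries against 55.3, 52.4 and 50.2 CPM in GFP libraries, a log2 fold change of 1.84 (SE 0.06).

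Isg15 encodes a ubiquitin-like protein that is attached to other proteins during the interferon response. It stood at 285, 330.5 and 284 CPM in GADD45G libraries, against 6.65, 7.03 and 8.60 CPM in GFP libraries. No library of one group came near the other group, and the log2 fold change was 5.33 (SE 0.10, edgeR adjusted p = 1.20e-11). Usp18, the protease that removes ISG15 and restrains signalling at the interferon receptor, had 250.04, 236 and 228 CPM in GADD45G libraries and 23.7, 25.6 and 23.1 CPM in GFP libraries, a log2 fold change of 3.30 (SE 0.06). Herc6, the main ISG15 ligase of the mouse, rose by 2.58 (SE 0.08).

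Mx1 and Mx2 belong to a gene family whose GTPases can trap viral components, and they lie on opposite strands of chromosome 16. Only their transcripts were measured here, not a working protein. Mx1 had 55.9, 55.4 and 48.1 CPM in GADD45G libraries and was barely detected in GFP libraries, at 0.563, 0.526 and 0.880 CPM. The difference was one of the largest of the list (log2 fold change 6.32, SE 0.14, edgeR adjusted p = 4.73e-11). Mx2, annotated as a polymorphic pseudogene, had 53.4, 57.8 and 50.1 CPM in GADD45G libraries and 2.05, 2.58 and 2.98 CPM in GFP libraries, a log2 fold change of 4.40 (SE 0.12).

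Among the enzymes that act on nucleotides and RNA, Rsad2 (viperin, which makes a chain-terminating nucleotide) and Cmpk2 (a mitochondrial nucleotide kinase) are divergent neighbours on chromosome 12, with a gap of 12751 bp between them. Rsad2 stood at 218, 229 and 199 CPM in GADD45G libraries, against 4.76, 4.97 and 5.52 CPM in GFP libraries (log2 fold change 5.40, SE 0.08, edgeR adjusted p = 3.46e-12). Cmpk2 stood at 201, 193 and 181 CPM in GADD45G libraries, against 51.0, 55.0 and 51.5 CPM in GFP libraries, a smaller log2 fold change of 1.86 (SE 0.06). Neither neighbour overlapped between the groups, and the fold was the larger for Rsad2. Ddx60, a helicase gene, rose by 3.30 (SE 0.08). Eif2ak2, which encodes the RNA-activated kinase PKR that stops translation, had 184, 208 and 183 CPM in GADD45G libraries and 54.1, 54.8 and 55.0 CPM in GFP libraries, a log2 fold change of 1.81 (SE 0.06). Adar, the enzyme that edits adenosines in duplex RNA, had 147, 154 and 139 CPM in GADD45G libraries and 78.1, 79.3 and 74.6 CPM in GFP libraries. Its rise of 0.92 (SE 0.05) was one of only 2 members' that stayed under 2-fold. Adar overlaps Chrnb2 on the other strand, and whether the counting used strand is not stated for these tables.

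The other member under 2-fold was Ifitm3, a membrane protein that hinders the entry of viruses. It had 424, 349.6 and 368 CPM in GADD45G libraries, against 204, 199 and 203 CPM in GFP libraries (log2 fold change 0.91, SE 0.07, edgeR adjusted p = 4.03e-07). The GADD45G libraries were all higher, though they differed among themselves more than the GFP libraries did. Bst2 (tetherin, which holds budding virus at the cell surface) had 435, 465 and 424 CPM in GADD45G libraries and 78.1, 86.2 and 84.4 CPM in GFP libraries, a log2 fold change of 2.41 (SE 0.06).

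Parp9, Parp10, Parp12 and Parp14 encode ADP-ribosyltransferases, and Dtx3l encodes the ubiquitin ligase that works with PARP9. These 5 genes changed by similar amounts, with log2 fold changes of 1.40 to 1.75. Parp14 had 103, 107 and 109 CPM in GADD45G libraries and 40.1, 36.1 and 36.6 CPM in GFP libraries (log2 fold change 1.497, SE 0.05, edgeR adjusted p = 1.26e-09). Parp9 had 102, 108 and 98.4 CPM in GADD45G libraries and 32.2, 34.6 and 35.9 CPM in GFP libraries, whereas Dtx3l had 79.6, 90.4 and 80.2 CPM in GADD45G libraries and 24.9, 25.6 and 23.7 CPM in GFP libraries. Parp9 and Dtx3l overlap by 682 bp on opposite strands of chromosome 16, so a share of their reads may be common, and Parp10 overlaps Plec on the same strand.

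The Schlafen genes on chromosome 11, a family that holds regulators of growth and, in humans, a restriction factor that acts on tRNA, held some of the largest changes. Slfn8 had 41.8, 44.97 and 42.5 CPM in GADD45G libraries and 0.614, 0.478 and 0.391 CPM in GFP libraries (log2 fold change 6.43, SE 0.13, edgeR adjusted p = 1.86e-11). Slfn2, which limits T cell proliferation, had 39.4, 34.5 and 41.5 CPM in GADD45G libraries and 0.409, 0.717 and 0.537 CPM in GFP libraries (log2 fold change 6.09, SE 0.16). The GFP values of both correspond to 30 and 34 reads over 3 libraries, so the exact size of the fold is less certain than its direction. Slfn9, a near relative of Slfn8, rose by 3.32 (SE 0.12). Slfn5 had 5.64, 4.85 and 11.9 CPM in GADD45G libraries and 0.205, 0.191 and 0.0489 CPM in GFP libraries, a log2 fold change of 5.59 (SE 0.50) that rested on 9 GFP reads, and it overlaps Slfn5os on the other strand. Samd9l, a growth-restricting antiviral gene, had 111, 130.0 and 107 CPM in GADD45G libraries and 46.8, 41.9 and 42.3 CPM in GFP libraries, a log2 fold change of 1.41 (SE 0.08).

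Ifi27 and Ifi27l2a, which encode small membrane proteins (human IFI27 sits in mitochondria), are neighbours on chromosome 12 with a gap of 1927 bp. Ifi27 had 361, 328 and 316 CPM in GADD45G libraries and 85.9, 96.0 and 90.4 CPM in GFP libraries (log2 fold change 1.88, SE 0.06). Ifi27l2a had 3.52, 5.01 and 16.9 CPM in GADD45G libraries and 2.30, 1.67 and 1.42 CPM in GFP libraries (log2 fold change 2.23, SE 0.52, edgeR adjusted p = 0.00315). GADD45G library 3 was far above the other two, and without it the log2 fold change of Ifi27l2a was 1.25.

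Of the remaining induced proteins, Ifi44, which encodes a cytoplasmic protein that slows growth of human cells, had 297, 284 and 261 CPM in GADD45G libraries and 3.17, 2.44 and 3.42 CPM in GFP libraries. Its log2 fold change of 6.54 (SE 0.10, edgeR adjusted p = 3.46e-12) was the largest of the 35. Lgals3bp, a secreted glycoprotein that binds galectins, had 388, 383 and 347 CPM in GADD45G libraries and 80.5, 82.9 and 87.8 CPM in GFP libraries (log2 fold change 2.15, SE 0.06). The apoptosis-related gene Xaf1 rose by 3.28 (SE 0.08), the receptor chaperone gene Rtp4 by 3.06 (SE 0.07) and Ifi35 by 1.22 (SE 0.07). Rtp4 overlaps Masp1 on the other strand and Gm45338 on its own. Sp100, a component of nuclear bodies, had 4.02, 4.03 and 9.54 CPM in GADD45G libraries and 0.358, 0.143 and 0.147 CPM in GFP libraries (log2 fold change 4.73, SE 0.49, edgeR adjusted p = 8.47e-06). Epsti1 had 0.615, 1.03 and 1.497 CPM in GADD45G libraries and 0.0512, 0.335 and 0.147 CPM in GFP libraries (log2 fold change 2.503, SE 0.59). The folds of Sp100 and Epsti1 rested on 13 and 11 GFP reads.

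GADD45G library 3 was the highest of its group for Slfn5, Sp100, Epsti1 and Ifi27l2a, the 4 members with the lowest counts in GADD45G libraries, and it is the library with the high microglial and blood markers. Over all 35 members the same library was the lowest of its group for 21, against 45.7% of all genes tested. Without it the log2 fold changes were 5.09 for Slfn5, 4.20 for Sp100, 2.16 for Epsti1 and 1.25 for Ifi27l2a, and all 35 members were still called higher. Markers of several cell types moved beside the members in GADD45G libraries. Of the 14 microglial markers none was called higher and 1 was called lower, whereas all 8 tested neuronal markers were lower (10 listed, summing to 232 to 252 CPM in GADD45G libraries and 480.3 to 503 CPM in GFP libraries). The 8 oligodendrocyte markers in the table, of 9 listed, summed to 117 to 132 CPM in GADD45G libraries, where Mobp was at 0, and 585 to 599 CPM in GFP libraries (3 higher and 2 lower of 7 tested). The 8 endothelial markers summed to 14.3 to 81.6 CPM in GADD45G libraries and 136 to 144 CPM in GFP libraries, where Cldn5 was at 0 (2 higher and 1 lower of 3 tested). The 8 fibroblast and mural markers summed to 436 to 789 CPM in GADD45G libraries and 942 to 967 CPM in GFP libraries, where Lum was at 0 (4 higher and 2 lower of 6 tested). The highest endothelial and fibroblast sums of the GADD45G group were those of library 3. As given above, 7 of 9 astrocyte markers were higher. The part of these shifts in the members' rise was not tested. In no alternative fit, and with no library left out, was a tested member's call lost in this comparison.

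**Figure D1:**
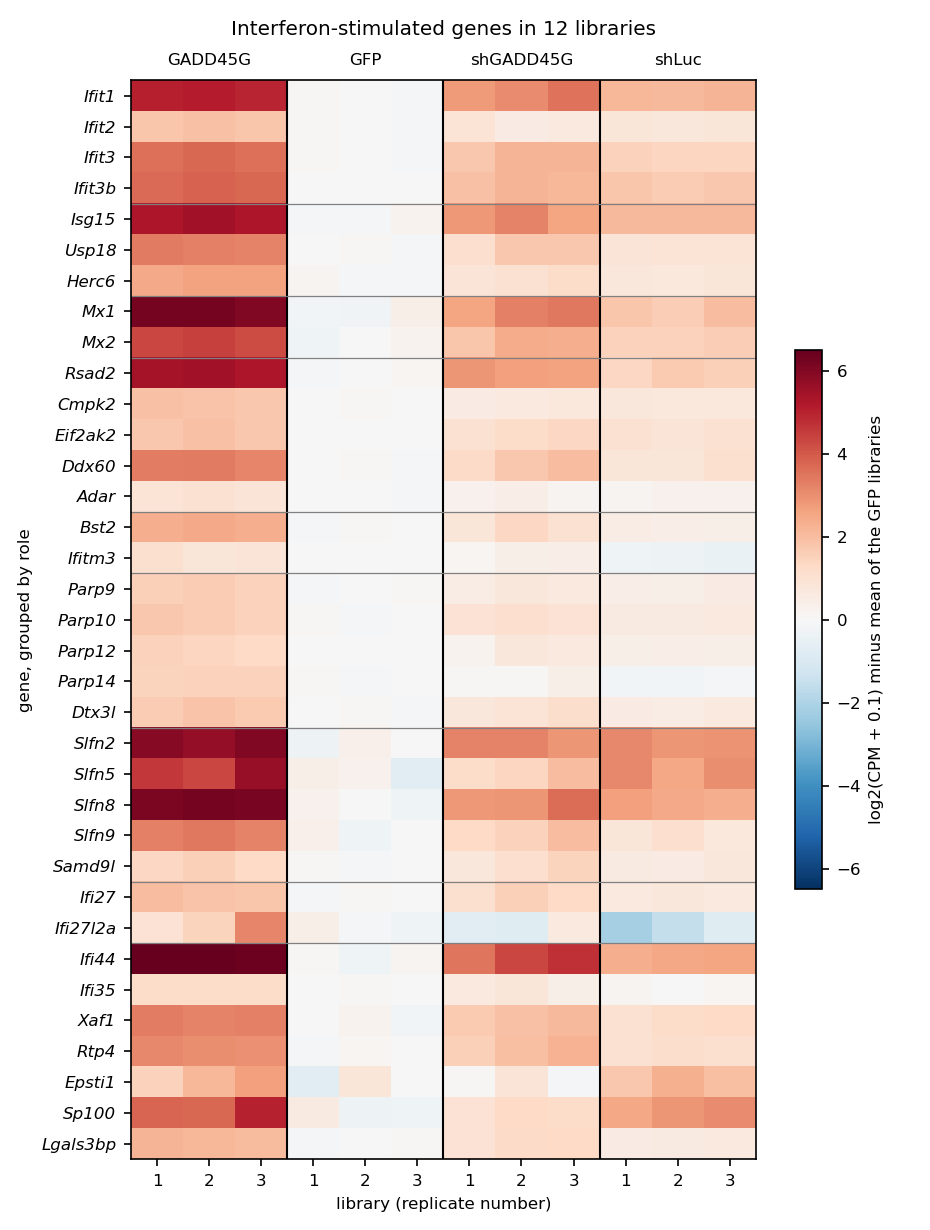
Level of each of the 35 members in the 12 libraries, as log2(CPM + 0.1) minus the mean of the GFP libraries, on a joint scaling of both experiments; rows are genes grouped by role and columns are libraries. The 3 GADD45G columns are the darkest red for nearly every gene, and the shGADD45G and shLuc columns are mostly between them and the GFP columns.

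Per base of transcript, the order of the members differed between the groups. In the deposited FPKM values, which are scaled for gene length and library total, Ifit3 was the highest member in GADD45G libraries at 750.5 ± 50.7 FPKM (SD, n = 3), followed by Ifitm3 at 552 ± 55.7, Bst2 at 481 ± 22.7 and Isg15 at 389.7 ± 34.1 FPKM. In GFP libraries Ifitm3 led at 295 ± 3.34 FPKM, followed by Bst2 at 91.0 ± 4.60, Ifi27 at 61.4 ± 3.43 and Ifit3 at 59.7 ± 2.81 FPKM, and Isg15 was at 9.74 ± 1.34 FPKM. Isg15 thus ranked 4th in GADD45G libraries and 12th in GFP libraries. Ifi27 and Ifit3 in GFP libraries did not differ beyond their spread. Slfn5, Sp100 and Epsti1 were the lowest 3 members in all 4 groups, at 0.444 to 1.16 FPKM in GADD45G libraries and 0.0232 to 0.0758 FPKM in GFP libraries. The members with the largest log2 fold changes, Ifi44, Slfn8, Mx1 and Slfn2, all averaged under 1 FPKM in GFP libraries (0.487, 0.120, 0.172 and 0.330 FPKM), the level that each fold is measured against.

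By promoter, the 12 members with an ISRE core had a median log2 fold change of 3.71 between GADD45G and GFP libraries (0.91 to 6.43). The 14 matched members without one had a median of 2.01 (0.92 to 6.54), and the 9 members with no promoter entry had 2.23 (1.497 to 6.32). The ranges overlapped almost fully. Ifitm3, with a core, changed least of all members and Ifi44, without one, changed most. Only a spacing of exactly 2 bases counted as a core. Among the members without a core, the windows of Ifi44, Adar, Xaf1 and Ifi35 hold GAAA repeats, on either strand, with a shorter gap. Those of Lgals3bp and Samd9l hold them with a longer gap. None of these was counted, and this list may not be complete. Between shGADD45G and shLuc libraries the medians were 0.68 with a core and 0.22 without, and between shLuc and GFP libraries 1.49 and 0.71. No test of these medians was made.

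shGADD45G libraries were compared with shLuc libraries to ask what differs when endogenous Gadd45g is targeted. Of the 35 members, 19 were higher in shGADD45G libraries, 3 were lower (Slfn5, Epsti1 and Sp100) and 13 did not pass the test. Across the 14914 genes tested, 10.4% were called by edgeR, 5.15% as higher and 5.27% as lower. The median log2 fold change of the members was 0.57, against 0.01 over all genes tested. Changes were small beside those in the GADD45G libraries: 4 members rose at least 2-fold, Ifi44, Mx1, Rsad2 and Ifit1. How many of all genes tested rose at least 2-fold was not counted. All shGADD45G libraries lay above all shLuc libraries for 25 members, against 16.1% of all genes tested, and below them for 3 members, against 16.4%. Summed over the members, the level was 2329, 2910 and 2969 CPM in shGADD45G libraries and 1903, 1874 and 1910 CPM in shLuc libraries. Over the same libraries 5 of 9 astrocyte markers and 12 of 14 microglia and macrophage markers were lower and none was higher, and their part in the members' changes was not tested.

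The knockdown counts depended on single libraries, with values given by library left out. Without shGADD45G library 1, 2 or 3, in that order, 25, 13 and 15 members were called higher and 2 lower each time. Of the 15191, 15241 and 15228 genes tested in these fits, 1379, 734 and 871 were called higher and 1366, 730 and 873 lower. Without shLuc library 1, 2 or 3, in that order, 7, 8 and 8 members were called higher, and 1, 1 and 0 lower. The median log2 fold change of the members was then 0.56 to 0.59. Calls over all genes fell as well, to 239, 247 and 275 higher and 300, 291 and 338 lower. These were out of 15261, 15192 and 15219 genes tested, against 768 higher and 786 lower of 14914 with all libraries. The 6 members called higher in all 6 fits with a library left out were Ifit1, Rsad2, Ifitm3, Ifi44, Xaf1 and Rtp4. The shGADD45G libraries also varied more among themselves than the shLuc libraries: pairs of libraries gave a chi-square over its degrees of freedom of 20.5 to 41.0 in shGADD45G and of 2.23 to 2.98 in shLuc, where counting error alone gives 1. It was 17.7 and 18.8 for the GADD45G pairs that hold library 3, 4.23 for the other GADD45G pair and 2.11 to 3.15 in GFP. shGADD45G library 1, which had the least Gadd45g, was the lowest of its group for 26 of the 35 members (35.2% of all genes tested). Several of its marker sums stood apart from those of shGADD45G libraries 2 and 3. Fibroblast and mural markers summed to 621 CPM, against 407 and 404 CPM. Oligodendrocyte markers summed to 173 CPM, against 116 and 115 CPM. Microglia and macrophage markers summed to 28.3 CPM, against 72.8 and 71.1 CPM. Its neuronal sum, 312 CPM, lay between theirs, 297 and 356 CPM. The part of these shifts in the members' levels was not tested.

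Of the Ifit genes, 3 rose in shGADD45G libraries. Ifit1 had 116, 141 and 195 CPM in shGADD45G libraries and 73.4, 72.1 and 76.8 CPM in shLuc libraries (log2 fold change 1.03, SE 0.16, edgeR adjusted p = 0.0036). Ifit3 had 347, 474 and 478 CPM in shGADD45G libraries and 289.7, 273 and 276 CPM in shLuc libraries (log2 fold change 0.63, SE 0.12, edgeR adjusted p = 0.00894, and 0.0593 and 0.0576 without shLuc library 2 or 3). Ifit3b changed by 0.38 (SE 0.10), a call kept in 1 of 6 fits with a library left out. Ifit2, by contrast, had 95.2, 74.2 and 82.3 CPM in shGADD45G libraries and 91.0, 87.8 and 90.8 CPM in shLuc libraries. These overlapped, and the log2 fold change was -0.10 (SE 0.10, edgeR adjusted p = 0.581).

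Isg15 had 52.4, 70.4 and 43.5 CPM in shGADD45G libraries and 31.8, 31.6 and 31.8 CPM in shLuc libraries. The shGADD45G libraries spread above the shLuc libraries, which were nearly equal (log2 fold change 0.80, SE 0.15, edgeR adjusted p = 0.00971, and up to 0.0554 without any one shLuc library). Usp18 had 50.2, 80.4 and 81.6 CPM in shGADD45G libraries and 43.0, 44.8 and 43.5 CPM in shLuc libraries, a log2 fold change of 0.69 (SE 0.16), and its call was kept in 1 of 6 fits with a library left out. Herc6 changed by 0.28 (SE 0.12, edgeR adjusted p = 0.166).

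Mx1 had 4.20, 7.13 and 7.79 CPM in shGADD45G libraries and 2.41, 2.15 and 2.86 CPM in shLuc libraries (log2 fold change 1.36, SE 0.27, edgeR adjusted p = 0.0111, and 0.0601 and 0.0679 without shLuc library 1 or 2). Mx2 had 8.88, 13.8 and 13.2 CPM in shGADD45G libraries and 7.11, 7.13 and 7.83 CPM in shLuc libraries (log2 fold change 0.70, SE 0.18). Its call was kept in 1 of 6 fits with a library left out. Every shGADD45G library was above every shLuc library for both Mx genes, and library 1 was the lowest of the shGADD45G group.

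Rsad2 had 37.1, 32.0 and 31.3 CPM in shGADD45G libraries and 12.7, 16.6 and 14.7 CPM in shLuc libraries. It had the smallest adjusted p of the members (log2 fold change 1.19, SE 0.13, edgeR adjusted p = 7.83e-04), and its log2 fold change was 1.10 to 1.29 over all alternatives. Its neighbour Cmpk2 had 75.4, 80.3 and 83.4 CPM in shGADD45G libraries and 86.1, 82.5 and 83.1 CPM in shLuc libraries, which overlapped (log2 fold change -0.07, SE 0.08, edgeR adjusted p = 0.596). Ddx60 changed by 0.82 (SE 0.19), a call kept in 2 of 6 fits with a library left out. Eif2ak2 had 109, 124 and 136 CPM in shGADD45G libraries and 108, 95.2 and 106 CPM in shLuc libraries (log2 fold change 0.25, SE 0.10, edgeR adjusted p = 0.145). Adar had 93.3, 104 and 85.8 CPM in shGADD45G libraries and 87.1, 91.4 and 91.9 CPM in shLuc libraries, with overlap and a log2 fold change of 0.07 (SE 0.09).

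Both membrane restriction factors rose. Ifitm3 had 222, 263 and 275 CPM in shGADD45G libraries and 163, 157 and 148 CPM in shLuc libraries (log2 fold change 0.70, SE 0.09, edgeR adjusted p = 0.0018). Bst2 had 143, 207 and 166 CPM in shGADD45G libraries and 113, 112 and 109 CPM in shLuc libraries (log2 fold change 0.63, SE 0.12, edgeR adjusted p = 0.0107, and up to 0.0662 without any one shLuc library). For both, the groups did not overlap.

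Of the ADP-ribosyltransferase group only Parp10 passed (log2 fold change 0.40, SE 0.09, edgeR adjusted p = 0.0194, and up to 0.118 without any one shLuc library). Parp14 had 39.8, 38.8 and 48.6 CPM in shGADD45G libraries and 33.0, 32.8 and 35.5 CPM in shLuc libraries (log2 fold change 0.33, SE 0.11, edgeR adjusted p = 0.0893). Dtx3l had 41.6, 45.2 and 53.7 CPM in shGADD45G libraries and 35.3, 33.9 and 37.9 CPM in shLuc libraries (log2 fold change 0.39, SE 0.11, edgeR adjusted p = 0.053). Both had every shGADD45G library above every shLuc library without passing the threshold. Dtx3l passed in 5 and Parp14 in 2 of 14 alternatives. Parp9, with 47.8, 57.0 and 52.3 CPM in shGADD45G libraries and 45.2, 43.7 and 49.9 CPM in shLuc libraries, overlapped between the groups (log2 fold change 0.18, SE 0.10), and Parp12 did not pass (0.15, edgeR adjusted p = 0.459).

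The Schlafen genes went different ways. Slfn9 rose by 0.78 (SE 0.20, edgeR adjusted p = 0.0335), a call kept in 1 of 6 fits with a library left out. Slfn8 had 3.98, 4.11 and 7.14 CPM in shGADD45G libraries and 3.52, 3.15 and 2.86 CPM in shLuc libraries (log2 fold change 0.67, SE 0.26, edgeR adjusted p = 0.147). Slfn2 had 5.76, 5.76 and 4.52 CPM in shGADD45G libraries and 5.5003, 4.51 and 4.74 CPM in shLuc libraries, which overlapped (log2 fold change 0.13, SE 0.19). Samd9l had 71.9, 91.5 and 119.7 CPM in shGADD45G libraries and 65.5, 63.2 and 71.6 CPM in shLuc libraries. It did not pass either, with a log2 fold change of 0.50 (SE 0.16, edgeR adjusted p = 0.0754), though it passed in 5 of 14 alternatives.

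Ifi27 had 186, 261 and 222 CPM in shGADD45G libraries and 139.8, 151 and 141 CPM in shLuc libraries (log2 fold change 0.63, SE 0.11, edgeR adjusted p = 0.0079, and 0.0569 and 0.0532 without shLuc library 1 or 3). Ifi27l2a had 1.02, 0.970 and 2.75 CPM in shGADD45G libraries and 0.309, 0.525 and 0.971 CPM in shLuc libraries, which overlapped by a narrow margin (log2 fold change 1.35, SE 0.54, edgeR adjusted p = 0.15). Ifi44 had the largest rise, with 34.4, 62.7 and 83.1 CPM in shGADD45G libraries and 15.7, 17.2 and 18.1 CPM in shLuc libraries (log2 fold change 1.82, SE 0.26, edgeR adjusted p = 0.0025). Its shGADD45G libraries differed more than 2-fold among themselves, yet the lowest was well above the shLuc libraries. Lgals3bp had 157, 196 and 201 CPM in shGADD45G libraries and 120.3, 125 and 127 CPM in shLuc libraries (log2 fold change 0.57, SE 0.10, edgeR adjusted p = 0.00661, and 0.0534 without shLuc library 1). Rtp4 rose by 0.91 (SE 0.16) and Xaf1 by 0.75 (SE 0.13). Ifi35 rose by 0.52 (SE 0.13), a call kept in 2 of 6 fits with a library left out.

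The 3 members that fell in shGADD45G libraries were the least expressed ones per base. Slfn5 had 0.431, 0.513 and 0.851 CPM in shGADD45G libraries and 1.92, 1.26 and 1.77 CPM in shLuc libraries (log2 fold change -1.47, SE 0.37, edgeR adjusted p = 0.0337). Epsti1 had 0.161, 0.342 and 0.131 CPM in shGADD45G libraries and 0.742, 1.15 and 0.857 CPM in shLuc libraries (log2 fold change -2.07, SE 0.48, edgeR adjusted p = 0.0231). Sp100 had 0.484, 0.628 and 0.589 CPM in shGADD45G libraries and 1.61, 2.05 and 2.46 CPM in shLuc libraries (log2 fold change -1.84, SE 0.33, edgeR adjusted p = 0.00724). For each of the 3, every shGADD45G library was below every shLuc library, on sums of 30, 11 and 29 reads in shGADD45G libraries and 86, 49 and 108 reads in shLuc libraries. The call was lost in 5 of 6 fits with a library left out for Slfn5 (edgeR adjusted p up to 0.156, and kept without shGADD45G library 3), in 4 for Epsti1 (up to 0.131, and kept without shGADD45G library 1 or 2) and in 1 for Sp100 (0.052 without shLuc library 3). The microglia and macrophage markers moved the same way: 12 of 14 were lower in shGADD45G libraries and none was higher. Their summed level was 28.3, 72.8 and 71.1 CPM in shGADD45G libraries and 263, 287 and 242 CPM in shLuc libraries, with no marker at 0 in either group. Their part in the changes of Slfn5, Epsti1 and Sp100 was not tested.

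**Figure D2:**
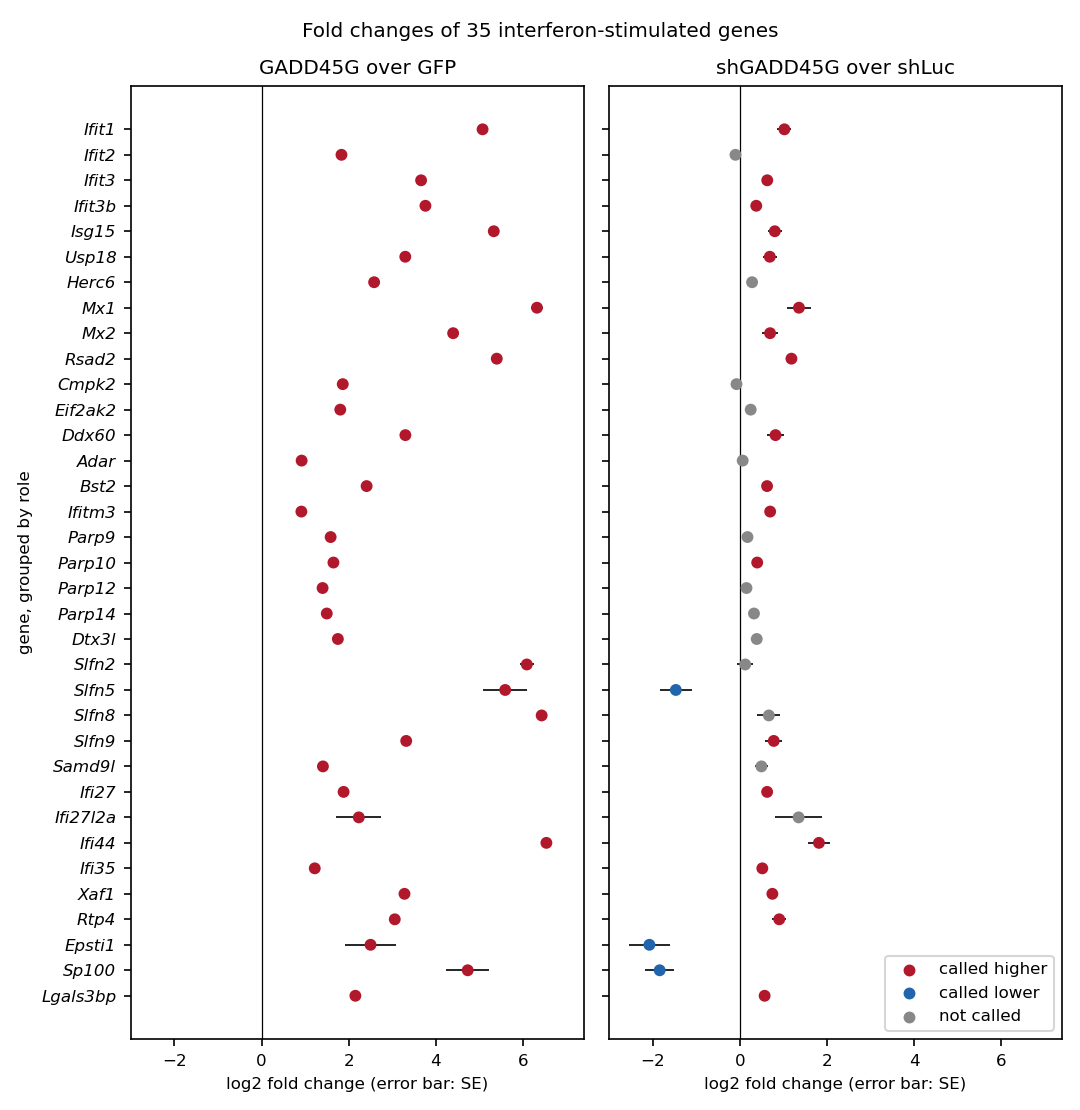
Log2 fold changes of the 35 members, GADD45G over GFP on the left and shGADD45G over shLuc on the right, with error bars showing the SE and colour showing the edgeR call at an adjusted p under 0.05. On the left all members lie between 0.91 and 6.54, and on the right they lie between -2.07 and 1.82 with 19 called higher and 3 lower.

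**Figure D3:**
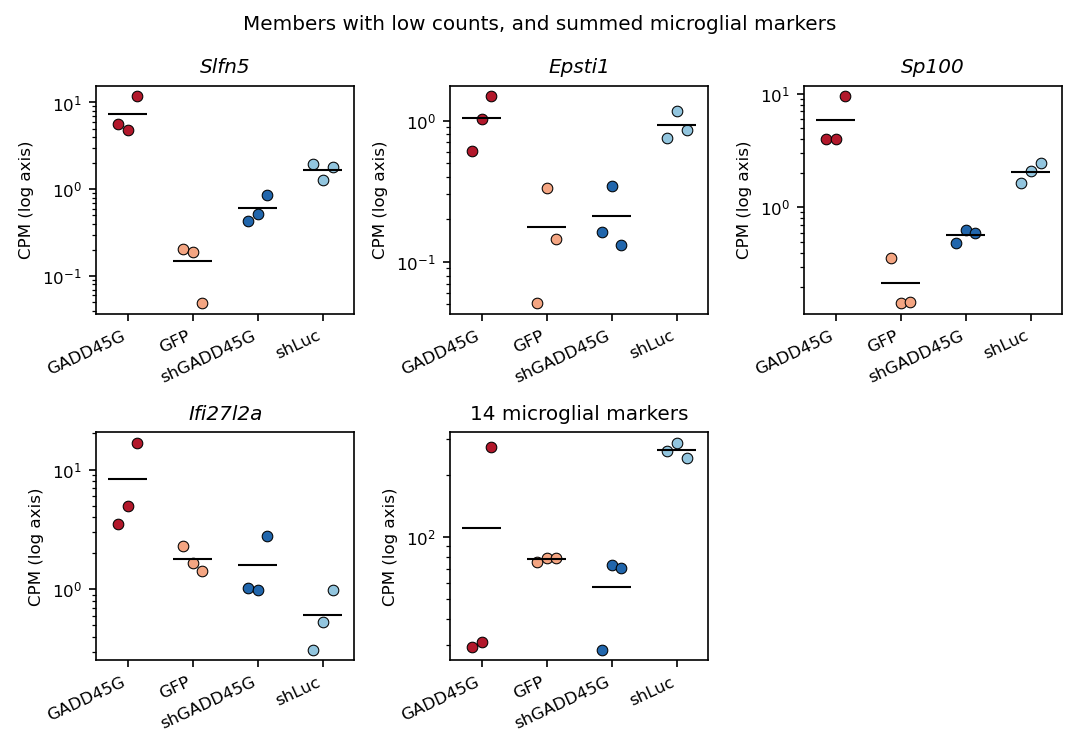
CPM on a log axis in each library (points; lines are group means) for the 4 members with the lowest counts, on a joint scaling of both experiments, and the summed CPM of 14 microglia and macrophage markers, scaled within each experiment. GADD45G library 3 is the highest of its group in every panel, and shGADD45G libraries lie below shLuc libraries for Slfn5, Epsti1, Sp100 and the markers.

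The 2 effects were then tested against each other in 1 fit of all 12 libraries, as the shGADD45G minus shLuc difference less the GADD45G minus GFP difference. This difference was below 0 and called for 33 members and above 0 for none, where 41% of the 15900 genes tested were called, 20.2% as lower and 20.7% as higher. The median was -2.29 for the members and 0.00 over all genes. Marker lists moved in different ways in this contrast. The median was -2.33 for the microglia and macrophage markers (10 of 14 lower, none higher) and -1.70 for the astrocyte markers (7 of 9 lower, 1 higher). For the neuronal markers it was 1.23 (4 of 7 tested higher, none lower), and for the oligodendrocyte markers -0.17 (1 higher and 1 lower of 6). Endothelial markers had a median of -3.88 (1 higher and 3 lower of 4), and fibroblast and mural markers -1.23 (2 higher and 1 lower of 7). Their part in the members' difference was not tested. It was most negative for Slfn5 (-7.05, SE 0.67, edgeR adjusted p = 1.17e-06) and Sp100 (-6.56, SE 0.63, edgeR adjusted p = 1.24e-06). The members that did not pass were Ifitm3 (-0.21, SE 0.12, edgeR adjusted p = 0.183) and Ifi27l2a (-0.87, SE 0.88, edgeR adjusted p = 0.464). Ifitm3 stood out in that its rise in shGADD45G libraries, 0.70, was close to its rise in GADD45G libraries, 0.91. Across the 35 members, the log2 fold changes of the experiments, which have separate controls, had a Pearson r of 0.14 and a Spearman rho of 0.38, given as a description since the members share libraries.

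Placed on 1 joint scale, the control groups did not start from the same level. GADD45G libraries had the highest mean for all 35 members. The order GADD45G, shGADD45G, shLuc, GFP held for the means of 27 members. For Cmpk2, Epsti1, Ifit2, Slfn5 and Sp100, shLuc was above shGADD45G, for Ifitm3 and Parp14 shLuc was the lowest group, and for Ifi27l2a GFP lay above shGADD45G and shLuc. Isg15 averaged 296 ± 25.3 CPM in GADD45G, 55.8 ± 13.8 CPM in shGADD45G, 32.0 ± 0.123 CPM in shLuc and 7.404 ± 1.02 CPM in GFP libraries (SD, n = 3 each). Ifit1 averaged 561 ± 33.6 CPM in GADD45G, 152 ± 40.4 CPM in shGADD45G, 74.7 ± 2.38 CPM in shLuc and 16.8 ± 0.939 CPM in GFP libraries. Ifitm3 ran otherwise, at 376 ± 38.6 CPM in GADD45G, 254 ± 27.7 CPM in shGADD45G, 157 ± 7.39 CPM in shLuc and 201 ± 2.04 CPM in GFP libraries.

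Between the controls, 31 members were higher in shLuc than in GFP libraries and 1 was lower, where 49.6% of all genes tested were called, 24.7% as higher and 25% as lower. The median log2 difference was 0.88 for the members and 0.00 over all genes. The largest differences were for Slfn5 (3.43, SE 0.53), Sp100 (3.23, SE 0.48) and Slfn2 (3.14, SE 0.21), all with an edgeR adjusted p of 9.10e-05 or less. Ifitm3 was the member called lower (-0.36, SE 0.09, edgeR adjusted p = 0.00308). Parp14 (-0.14, SE 0.09), Ifi35 (0.10, SE 0.10) and Ifi27l2a (-1.54, SE 0.66) did not pass. Of the microglial markers, 9 of 14 were also higher in shLuc libraries and none was lower, and of the astrocyte markers 6 of 9 were higher and 2 lower. Neuronal markers went the other way, with 6 of 7 tested lower and none higher. Oligodendrocyte markers were mixed, with 2 higher and 3 lower of 6 tested. Endothelial markers had none higher and 1 lower of 4 tested, and fibroblast and mural markers 1 higher and 2 lower of 7 tested. Their part in the members' differences was not tested. The experiment, the vector and any batch of culture or sequencing cannot be told apart in this comparison.

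**Figure D4:**
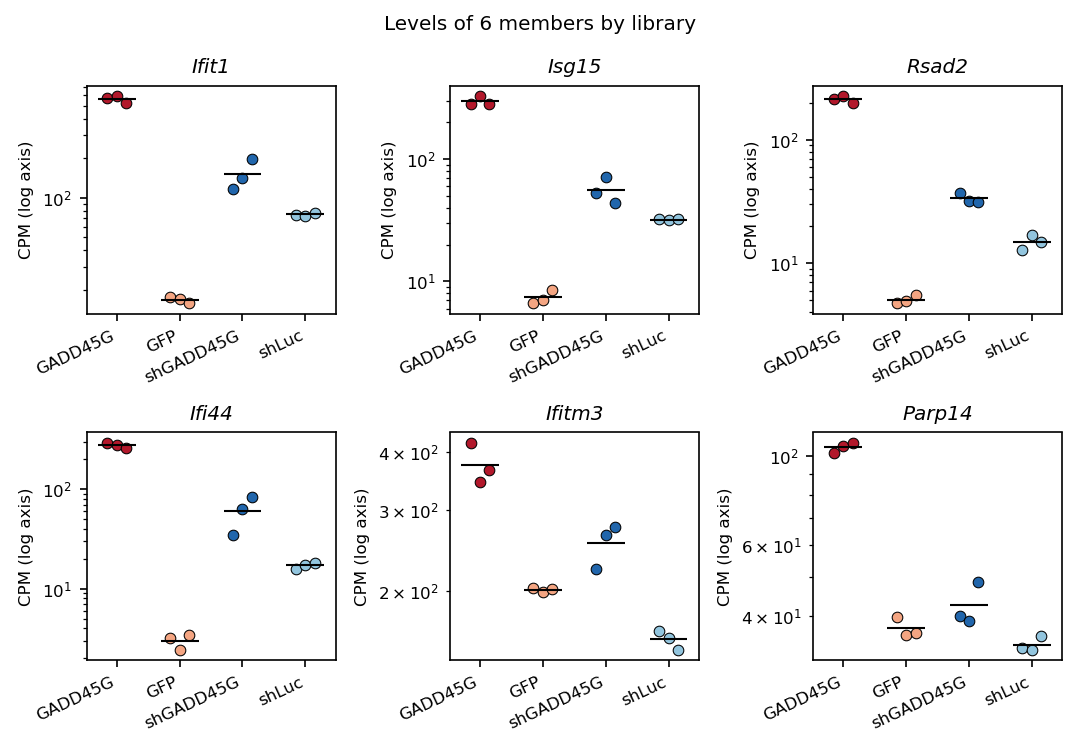
CPM on a log axis and a joint scaling of both experiments for Ifit1, Isg15, Rsad2, Ifi44, Ifitm3 and Parp14 in each library (points; lines are group means). Ifit1, Isg15, Rsad2 and Ifi44 descend from GADD45G through shGADD45G and shLuc to GFP, whereas shLuc libraries are the lowest group for Ifitm3 and Parp14.

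The genes upstream and alongside the members were followed in a list of 34, of which 25 could be tested. In GADD45G libraries 14 of the 25 were higher, 4 were lower and 7 did not pass. Over all genes tested, 30.6% were called higher and 29.7% lower. Stat2 had 221, 216 and 199 CPM in GADD45G libraries and 50.6, 47.8 and 52.3 CPM in GFP libraries (log2 fold change 2.08, SE 0.06). Irf9 had 146, 156 and 134 CPM in GADD45G libraries and 42.9, 41.3 and 42.1 CPM in GFP libraries (1.79, SE 0.06). For both, every GADD45G library was above every GFP library. Irf7, the transcription factor that amplifies interferon production, had 243, 244 and 221 CPM in GADD45G libraries and 9.06, 8.37 and 8.65 CPM in GFP libraries (4.76, SE 0.07, edgeR adjusted p = 2.72e-12). The ISG15 activating enzyme gene Uba7 rose by 2.27 (SE 0.07), the ISG15 conjugating enzyme gene Ube2l6 by 1.18 (SE 0.06) and the feedback inhibitor gene Socs1 by 1.70 (SE 0.19).

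The receptor genes did not rise. Ifnar1 had 69.0, 59.5 and 63.8 CPM in GADD45G libraries and 121, 121 and 128 CPM in GFP libraries, and fell by 0.95 (SE 0.06, edgeR adjusted p = 1.45e-07). Ifnar2 overlapped between the groups, with 33.4, 32.3 and 31.4 CPM in GADD45G libraries and 29.8, 30.0 and 31.8 CPM in GFP libraries. The ligand gene Ifnb1 was too low to test, with 8, 10 and 4 reads in GADD45G libraries (0.447, 0.544 and 0.222 CPM) and 0, 1 and 1 reads in GFP libraries (0, 0.0478 and 0.0489 CPM). Of the other ligands listed, Ifnk had 0 to 4 reads in any library, and 7 were not analysed here.

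In shGADD45G libraries 5 of the 25 pathway genes were higher, 2 were lower and 18 did not pass. Over all genes tested, 5.15% were called higher and 5.27% lower. The pathway genes that rose were Irf7 (0.77, SE 0.12, edgeR adjusted p = 0.00413), Irf9 (0.40, SE 0.10), Stat2 (0.39, SE 0.10), Irf2 (0.32, SE 0.09) and Ifnar1 (0.32, SE 0.08). Irf7 was called with any library left out. The calls of Irf9, Stat2 and Irf2 were lost without shGADD45G library 2 or 3 or without any one shLuc library (edgeR adjusted p up to 0.139, 0.161 and 0.217). That of Ifnar1 was lost without any one shLuc library (up to 0.175) and with no filter (0.0502). With every library kept, the Irf2 call was also lost with upper quartile factors (0.0593), no filter (0.0784) and a replicate block (0.06, all edgeR adjusted p). Those that fell were Irf8 (-2.37, SE 0.35) and Irf5 (-1.76, SE 0.30), transcription factors known from macrophages. Irf2, Irf5 and Irf8 are named here after their values were seen. Uba7 (0.27, SE 0.16), Ube2l6 (0.68, SE 0.19), Socs1 (0.30, SE 0.23) and Ifnar2 (-0.06, SE 0.11) did not pass, and Ifnb1 had 1, 1 and 0 reads in shGADD45G libraries and 4, 0 and 0 reads in shLuc libraries.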

How the data were processed

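RNA abundance was measured by stranded sequencing of total RNA in 12 libraries, 3 in each of 4 groups, and each experiment came as 1 table. Per the submitters' processing notes, reads were aligned with STAR 2.5 to mm10, counted per gene with HTSeq 0.6.1 and analysed with DESeq2. The raw count columns are whole numbers as deposited, with no normalization by the authors. FPKM values, per the file headers, relate each count to gene length and sequencing depth; the authors computed them. The log2 fold changes and adjusted p-values in the deposited tables are the authors' own. The authors called 35 members higher and 0 lower in GADD45G libraries, and 21 higher and 3 lower in shGADD45G libraries. In shGADD45G libraries, Dtx3l and Samd9l passed there (the authors' DESeq2 adjusted p 0.0349 and 0.0288) but not in the edgeR test here. Another 12 columns of values per sample, counts divided by size factors, were not used. Columns headed G45g, shG45g and shCtrl were matched to the GADD45G, shGADD45G and shLuc libraries by name and replicate number.

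Counts were filtered with filterByExpr, scaled by TMM and tested per experiment with the quasi-likelihood test of edgeR 4.0.16 (R 4.3.3), with Benjamini-Hochberg adjustment over all genes tested and a threshold of 0.05. A fit of all 12 libraries gave the difference of the effects, the shLuc against GFP comparison and the joint CPM. Alternatives were other scaling factors, DESeq2 1.42.0, limma 3.58.1 (voom), no filter or a filter of 1 CPM in 3 libraries, a replicate block, all libraries in 1 fit, and each library left out. The code was tested on simulated data. Promoter windows are from RefSeq, with genes of chromosome 18 left out of their background, and were searched in Python 3.11.15.

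The members, lists and tests were chosen with earlier results of these data known. All members are named, with values in every library for those with central roles, those called lower or opposite in direction between experiments, and for chosen pathway genes. Of these, 1 is not reported here. Precision follows the total counts given above, and read counts are given beside the values of some low members but not of all.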

Additional observations from a re-analysis of the deposited data

How the results depend on the processing

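Depth limits Slfn5, Epsti1, Sp100, Ifi27l2a and Ifnb1 most, since their values rest on few reads. With 3 libraries a group, and shGADD45G libraries that vary widely, the knockdown calls depend on single libraries. Members called higher in GADD45G libraries numbered 35 of 35 under each alternative, or 34 of 34 with the filter of 1 CPM, and the difference of the effects was called for 33 under each. In shGADD45G libraries 18 to 23 members were called higher and 2 or 3 lower under alternatives that kept every library. With 1 library left out, 7 to 25 were called higher and 0 to 2 lower, and over all genes the calls fell to between 239 and 275 higher and between 291 and 338 lower without a shLuc library, against 768 and 786 with all libraries, and numbered 1379 and 1366 without shGADD45G library 1. All 12 libraries in 1 fit gave 1349 and 1321. The cause was not tested. Between shLuc and GFP libraries, 2 members were called lower with DESeq2 and with the replicate block, and 1 to 2 with a library left out; the added member was Ifi27l2a.

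Deviations from the group means were correlated between libraries of the same number. The values were -0.0048, -0.0089 and 0.0121 between GADD45G and GFP libraries, against -0.0219 to 0.0293 for different numbers. Between shGADD45G and shLuc libraries they were -0.0244, 0.0803 and 0.0439, against -0.0758 to 0.0270 for different numbers. All values were small, though in the knockdown the same-numbered libraries 2 and 3 gave the highest. With a replicate block, 35 members were called higher in GADD45G libraries, 21 were called higher and 3 lower in shGADD45G libraries, and the difference of the effects was called for 33.

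Signs reversed only for differences that were not called with all libraries. Irf1 in shGADD45G libraries was at -0.0069 with upper quartile factors. With 1 library left out, Irf8 ran from -0.25 to 1.10 in GADD45G libraries. In shGADD45G libraries Adar ran from -0.0093 to 0.13, Ifnar2 from -0.13 to 0.0273, Ifnlr1 from -0.26 to 0.15, Il10rb from -0.0371 to 0.31, Jak2 from -0.0177 to 0.19, Irf1 from -0.0222 to 0.0457 and Ptpn2 from -0.24 to 0.0569 (log2 fold changes).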
